A study of Caenorhabditis elegans with 6 samples.

Results

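A set of 40 genes of meiotic prophase was followed in whole-body RNA of *Caenorhabditis elegans* hermaphrodites of a glna knockout and of wild type. They were found by their WormBase symbols, and 40 of 40 were present among the 21507 genes of the deposited table. There were 3 samples of the glna knockout and 3 of wild type (strain N2), all from untreated animals at L4, the last larval stage. The glna genes encode glutaminases, which convert glutamine to glutamate and ammonia. The labels give neither the alleles of the knockout nor the number of animals or cultures behind a sample, so p-values here measure only how these samples vary, and that variation may be technical.

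In meiotic prophase, homologous chromosomes pair, are joined along their length by the synaptonemal complex, and are cut and repaired so that crossovers link each pair. Each sister chromatid pair is organised on a protein axis of cohesin and HORMA-domain proteins, on which the other steps depend. In *C. elegans*, zinc finger proteins bind a special site on each chromosome, the pairing centre, and chromosomes with no crossover can fail to segregate. When this befalls the X chromosome it gives the Him phenotype (a high incidence of males) behind several of these gene names. At L4 the hermaphrodite germline holds cells in meiotic prophase and makes sperm before it switches to oocytes.

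The libraries held 18443661 to 19861540 reads assigned to genes, and the 40 genes took 0.130% to 0.135% of them in the knockout and 0.114% to 0.134% in wild type. Knockout replicate 1 stood apart in composition, with 3.58% of its reads in ribosomal RNA genes, against 0.331% to 0.763% in the other 5 libraries, and 13.7% in its 10 most abundant genes, against 5.21% to 6.60%. Of the glutaminase genes, *glna-2* had 37.4, 66 and 69.5 normalized counts (reads over a size factor of each library) in knockout replicates 1, 2 and 3, against 519, 408 and 448 in wild type replicates 1, 2 and 3, and *glna-3* had 83.1, 175 and 116 in the knockout replicates, against 761, 670.4 and 636 in those of wild type. Both were low in all 3 libraries labelled knockout. Another glutaminase gene, *glna-1*, was also lower but nearer to wild type. It had 187, 128 and 151 in the knockout replicates, against 268, 255 and 269.8 in those of wild type (log2 fold change -0.78). These groups did not overlap, and the adjusted p was 0.00742 in the authors' deposited table and 0.0762 in the limma fit described below. Which of the glna genes carry mutations is not given in the labels. Of 17 markers of intestine, muscle, neurons, epidermis and the somatic gonad, 16 passed the filter on low values, a mean of at least 10 normalized counts over the 6 libraries, and *lag-2*, which encodes a Notch ligand of the germline niche, did not.

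All 40 meiotic genes passed that filter, with means over the 6 libraries of 106 to 1561 normalized counts and 91 to 1798 reads in any library. Per kilobase of gene length, the highest were *him-3* (1372 normalized counts per kilobase in the knockout and 1322 in wild type), *htp-1* (952 in the knockout and 839 in wild type), *syp-4* (763 in the knockout and 726 in wild type) and *plk-2* (749.7 in the knockout and 706 in wild type), which encode an axis component, its relative, a synaptonemal complex protein and a Polo-like kinase. The lowest was *zhp-4*, a crossover gene, at 128 normalized counts per kilobase in the knockout and 101 in wild type, followed by *him-14* (145 in the knockout and 125 in wild type). Genes of the axis and of the synaptonemal complex filled 7 of the 8 highest places in wild type, while crossover genes filled the low places 36, 37, 39 and 40 of 40. In the knockout, *plk-2*, *rad-51* and *him-17* held places 4, 7 and 8. *lab-1* was at place 7 in wild type, where replicate 1 had 445 normalized counts, against 259 and 272 in replicates 2 and 3, and at place 13 in the knockout. The order of levels was close in both genotypes, with 9 of the 10 highest genes per kilobase shared (Spearman's rho 0.945 across the 40 genes, given as a description). Neighbours in this order often lay within each other's spread, such as *syp-4* and *plk-2*.

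**Figure D1:**
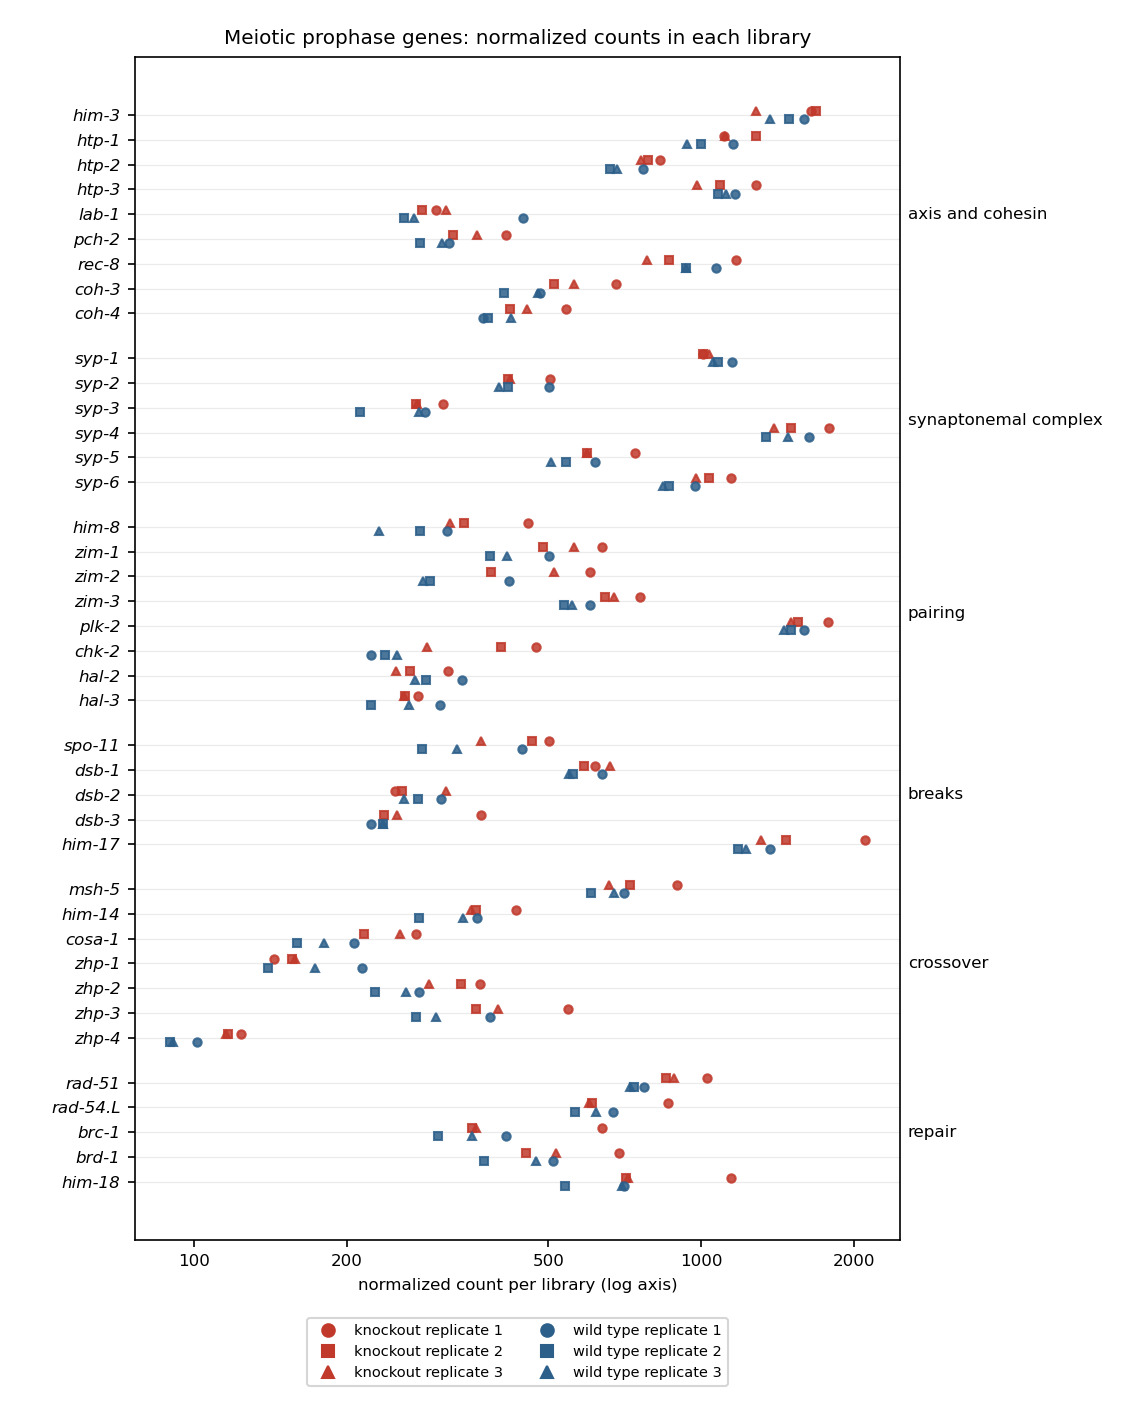
Normalized counts (log axis) of the 40 meiotic prophase genes in each library, grouped by step; in each row the 3 knockout libraries lie above the 3 wild-type libraries, and symbols mark the replicate number. Knockout replicate 1 is the rightmost point in 31 of 40 rows, and in most rows the genotypes overlap.

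The comparison of the genotypes asked whether RNA of the meiotic program differed in the knockout, in a study whose title is about sperm function. No member passed the test. limma, fitted to log2(normalized count + 1) of all 15169 genes that passed the filter, called 0 of the 40 members at a Benjamini-Hochberg adjusted p under 0.05, against 0.356% of all genes tested (0.211% higher and 0.145% lower), and the smallest adjusted p of a member was 0.109. At an unadjusted p under 0.05 there were 9 members, or 22.5%, and 22.6% of all genes tested, so that this share was at the background. These 9 members (*chk-2*, *zim-2*, *cosa-1*, *rad-51*, *zhp-2*, *zim-1*, *coh-3*, *zim-3* and *him-8*) had positive log2 fold changes (knockout over wild type), whereas over all genes tested 10.9% were higher at this p and 11.8% lower. edgeR's quasi-likelihood test on the recovered reads called 0 members, against 0.0593% of all genes tested, with 9 members (22.5%) at an unadjusted p under 0.05, against 23.0%. The authors' deposited table has 1 member higher at an adjusted p under 0.05, *chk-2*, and 0 lower, against 2.83% of all 21507 genes higher and 2.92% lower (5.75% in all). In whole-body RNA, fewer cells of a type and less RNA per cell cannot be told apart.

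The fold changes were small and mostly positive. Of the 40 members, 33 had a positive log2 fold change, against 51.2% of all genes tested, and their median was 0.23, against 0.01 over all genes tested. Means of the knockout over wild type ranged from 0.868-fold (*zhp-1*) to 1.63-fold (*chk-2*). The 95% intervals of limma lay within a 2-fold change either way (log2 -1 to 1) for 38 of the 40 genes, and the exceptions were *chk-2* and *zim-2*, whose upper bounds were 1.11 and 1.09. Groups did not overlap for 13 members. The knockout was higher in all 3 libraries for 12 of them (30%, against 15.3% of all genes tested) and lower for 1, *syp-1* (2.5%, against 15.2%).

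Knockout replicate 1 was the highest of the 6 libraries for 31 of the 40 members (77.5%, against 30.8% of all genes tested), and wild type replicate 2 was the lowest for 22 (55%, against 21.3%). Normalized counts of knockout replicate 1 were its reads times 1.17, against 0.937 to 0.997 in the others. As a share of reads the members took 0.135%, 0.130% and 0.134% in knockout replicates 1, 2 and 3, against 0.134%, 0.114% and 0.121% in those of wild type. How far knockout replicate 1 lies above the others thus depends on the scaling. The median over members of the difference from the wild-type mean was 0.42, 0.12 and 0.12 (log2) in knockout replicates 1, 2 and 3, against 0.13, -0.09 and -0.04 in the wild-type replicates in the same order. Wild type replicate 1 thus lay level with knockout replicates 2 and 3. Without knockout replicate 1 the median log2 fold change was 0.12, positive values numbered 29 (against 50.6% of all genes tested), and 1 member, *chk-2*, had an unadjusted p under 0.05, against 17.3% of all genes tested. With knockout replicates 2 and 3 left out in turn, that count was 9 and 5 of the 40 members, against 26.8% and 21.5% of all genes tested. It was 9, 1 and 1 of 40 without wild type replicates 1, 2 and 3, against 18.5%, 13.3% and 16.4%.

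**Figure D2:**
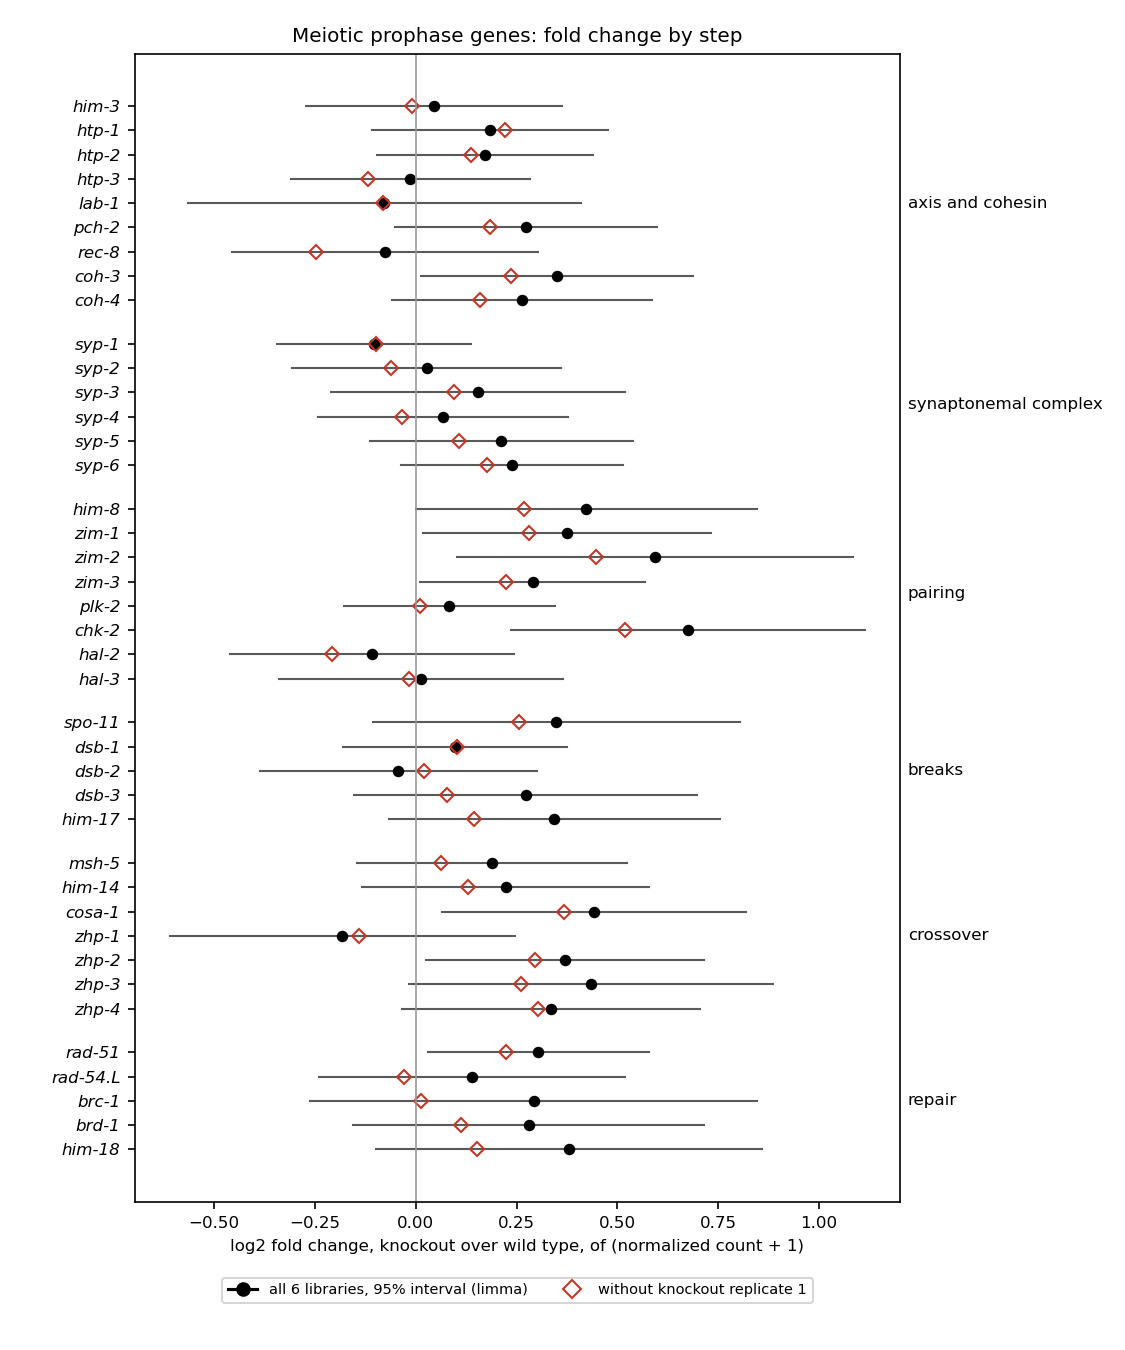
Log2 fold change of knockout over wild type on the log2(normalized count + 1) scale for the 40 genes by step, with the 95% interval of limma from all 6 libraries (filled points) and the estimate without knockout replicate 1 (open diamonds). The points furthest to the right are *chk-2* and *zim-2* (pairing), and the furthest to the left is *zhp-1* (crossover). Most estimates move toward 0 without knockout replicate 1.

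Among the 9 axis and cohesin genes, 6 log2 fold changes were positive and the median was 0.17. HIM-3, HTP-1, HTP-2 and HTP-3 are the HORMA-domain proteins of the axis. *him-3* had 1645, 1684 and 1284 normalized counts in knockout replicates 1, 2 and 3, against 1592, 1487 and 1367 in wild type replicates 1, 2 and 3 (chromosome IV, 6977519 to 6978766, WBcel235). *htp-1* had 1109, 1283 and 1115 normalized counts in knockout replicates 1, 2 and 3, against 1157, 999.6 and 936 in wild type replicates 1, 2 and 3. *htp-2* had 831, 785 and 760.2 normalized counts in knockout replicates 1, 2 and 3, against 768, 661 and 682 in wild type replicates 1, 2 and 3. The genotypes overlapped for all of these genes, and their log2 fold changes were 0.05 (SE 0.14), 0.18 (SE 0.13) and 0.17 (SE 0.12), with limma adjusted p of 0.866, 0.412 and 0.398. HTP-1 and HTP-2 are close paralogs, so how reads were divided between their genes is uncertain. The ratio of *htp-1* to *htp-2* per kilobase was 1.51 ± 0.153 in the knockout and 1.496 ± 0.08115 in wild type (SD, n = 3 each). *htp-3*, whose product the other HORMA proteins need to reach the axis, averaged 1117 ± 154 normalized counts in the knockout and 1121 ± 41.2 in wild type (SD, n = 3 each; log2 fold change -0.01, 95% interval -0.31 to 0.28).

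Cohesin in meiosis is built with alternative kleisin subunits, REC-8 on one side and the nearly identical COH-3 and COH-4 on the other. *coh-3* (chromosome V, 14457475 to 14460141) had the smallest p of the axis and cohesin genes. *coh-3* had 679, 512 and 560.5 normalized counts in knockout replicates 1, 2 and 3, against 481, 409 and 476 in wild type replicates 1, 2 and 3. All 3 knockout values lay above all 3 wild-type values (log2 fold change 0.35, SE 0.15, unadjusted p = 0.0431, limma adjusted p = 0.207). *coh-4* had 542, 421 and 453 normalized counts in knockout replicates 1, 2 and 3, against 372, 381 and 422 in wild type replicates 1, 2 and 3. The lowest of the knockout values lay just under the highest of wild type, by less than 2 counts, and 15.9% of the *coh-4* exon bases are shared with Y45G5AM.7 on the same strand. As the paralogs are so alike, how reads were divided between *coh-3* and *coh-4* is uncertain. *rec-8*, shown in full because its direction differed and so chosen after its values were seen, had 1172, 863 and 782 normalized counts in knockout replicates 1, 2 and 3, against 1067, 932 and 932 in wild type replicates 1, 2 and 3. Knockout replicates 2 and 3 were below every wild-type library and knockout replicate 1 above them all (log2 fold change -0.08, and -0.25 without knockout replicate 1). The ratio of *rec-8* to *coh-3* per kilobase, which does not depend on the size factor of a library, was 1.45, 1.41 and 1.17 in knockout replicates 1, 2 and 3, against 1.86, 1.91 and 1.64 in wild type replicates 1, 2 and 3. These ratios did not overlap between the genotypes, with 1.34 ± 0.152 in the knockout and 1.803 ± 0.142 in wild type (SD, n = 3 each). The pair was chosen after its values were seen, so the difference is a description. It was 1 of 7 pairs examined, and an exact permutation test gave p = 0.1 (0.7 with Benjamini-Hochberg adjustment over the pairs). With 3 libraries against 3, that test cannot give a p below 0.1. The uncertain division of reads between *coh-3* and *coh-4* also bears on these ratios.

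The remaining axis genes act on its proteins. *pch-2*, which encodes the AAA+ ATPase that remodels HORMA proteins, averaged 366 ± 44 normalized counts in the knockout and 302 ± 20.2 in wild type (SD, n = 3 each), with groups that did not overlap (log2 fold change 0.27, limma adjusted p = 0.285). *lab-1*, whose product protects sister chromatid cohesion on the long arms, averaged 299 ± 16.2 in the knockout and 325 ± 104 in wild type. The spread of *lab-1* in wild type came from replicate 1, at 445, against 259 and 272 in wild type replicates 2 and 3.

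The synaptonemal complex genes *syp-1* to *syp-6* encode the proteins of the central region, and they had the lowest median log2 fold change of the 6 steps, 0.11, or 0.03 when knockout replicate 1 was left out. None had an unadjusted p under 0.05. *syp-4* had 1787, 1501 and 1393 normalized counts in knockout replicates 1, 2 and 3, against 1632, 1343 and 1481 in wild type replicates 1, 2 and 3. It is the most abundant of the 6 per kilobase, and its groups overlapped (log2 fold change 0.07, 95% interval -0.24 to 0.38). *syp-5* had 741, 596 and 596 normalized counts in knockout replicates 1, 2 and 3, against 619, 541 and 505 in wild type replicates 1, 2 and 3. *syp-6* had 1146, 1036 and 978 normalized counts in knockout replicates 1, 2 and 3, against 973, 866 and 840.2 in wild type replicates 1, 2 and 3. The proteins SYP-5 and SYP-6 are paralogs with overlapping roles. The *syp-6* groups did not overlap and had the smallest p of the step (log2 fold change 0.24, SE 0.12, limma adjusted p = 0.274), and the ratio of *syp-5* to *syp-6* per kilobase was 0.721 ± 0.0421 in the knockout and 0.733 ± 0.0214 in wild type (SD, n = 3 each).

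*syp-1* was the member with all 3 knockout values below all 3 wild-type values, at 1009, 1006 and 1037 normalized counts in knockout replicates 1, 2 and 3, against 1150, 1078 and 1054 in wild type replicates 1, 2 and 3. The gap between the genotypes was small, with a log2 fold change of -0.10 (95% interval -0.34 to 0.14, limma adjusted p = 0.574), and 16.9% of its exon bases are shared with F13A7.14 on the same strand. *syp-2* averaged 447 ± 49 in the knockout and 439 ± 54.8 in wild type, and *syp-3* 286 ± 20.7 in the knockout and 259 ± 39.8 in wild type (SD, n = 3 each).

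Pairing genes held the 2 largest log2 fold changes of the 40, those of *chk-2* and *zim-2*. For the 8 genes of this step the median was 0.33, or 0.25 when knockout replicate 1 was left out, and 5 of the 9 members with an unadjusted p under 0.05 are in this step. CHK-2 is the meiotic kinase that starts pairing and break formation and phosphorylates the pairing centre proteins. *chk-2* had 473, 403 and 288 normalized counts in knockout replicates 1, 2 and 3, against 223, 239 and 252 in wild type replicates 1, 2 and 3 (chromosome V, 19908890 to 19915973, minus strand). All knockout libraries lay above all wild-type libraries, which spanned a narrow range, and knockout replicate 3 was closest to them. In limma the log2 fold change was 0.68 (SE 0.19, 95% interval 0.24 to 1.11, adjusted p = 0.109). The authors' deposited table gives 0.70 with an adjusted p of 0.0288. DESeq2 on the recovered reads gave the same adjusted p. Refitted without 1 library at a time, DESeq2 called *chk-2* when knockout replicate 3 was left out (adjusted p = 0.00107) and did not when any of the other 5 was, with adjusted p of 0.148 and 0.0806 without knockout replicates 1 and 2 and 0.15, 0.182 and 0.114 without wild type replicates 1, 2 and 3. Its log2 fold change over these fits was 0.54 to 0.87, lowest without knockout replicate 1. limma did not call *chk-2* in any fit that left out a library, with adjusted p from 0.0865 to 0.312.

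HIM-8, ZIM-1, ZIM-2 and ZIM-3 are the zinc finger proteins that bind the pairing centres, HIM-8 that of the X chromosome and the ZIM proteins those of the autosomes. Their genes lie side by side on the plus strand of chromosome IV, from 10547086 to 10563815. *zim-2* averaged 500.5 ± 109.6 normalized counts in the knockout and 331 ± 75.9 in wild type (SD, n = 3 each). The log2 fold changes were 0.59 for *zim-2*, 0.42 for *him-8*, 0.38 for *zim-1* and 0.29 for *zim-3*, and all 4 had an unadjusted p between 0.0234 and 0.0495. None passed limma (adjusted p = 0.162, 0.22, 0.204 and 0.206). DESeq2 called *zim-2* without knockout replicate 2 or wild type replicate 1 (adjusted p = 0.0288 and 0.04), the libraries through which its groups overlap, and not with all 6. The groups did not overlap for *him-8* and *zim-3* but did for *zim-1* and *zim-2*, in both of which wild type replicate 1 lay above knockout replicate 2. In the Ensembl gene models, *zim-1* and *zim-2* share 223 exon bases on the same strand, 11.02% and 9.46% of their exon bases. In the deposited coordinates they share none, as *zim-1* ends at 10555442 and *zim-2* starts at 10555649.

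PLK-2 is the Polo-like kinase recruited to pairing centres. *plk-2* had 1775, 1549 and 1500.1 normalized counts in knockout replicates 1, 2 and 3, against 1591, 1499 and 1453 in wild type replicates 1, 2 and 3. It had the highest level per kilobase of the pairing genes, and its groups overlapped (log2 fold change 0.08, 95% interval -0.18 to 0.35). *hal-2* and *hal-3* encode partners that keep synapsis between homologs. *hal-2* averaged 278 ± 35 in the knockout and 299 ± 33.9 in wild type, and *hal-3* 266 ± 9.18 in the knockout and 265 ± 41.1 in wild type (normalized counts; SD, n = 3 each), with log2 fold changes of -0.11 and 0.01. Of the *hal-2* exon bases, 12.3% are shared with *gtf-2H2C* on the same strand.

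**Figure D3:**
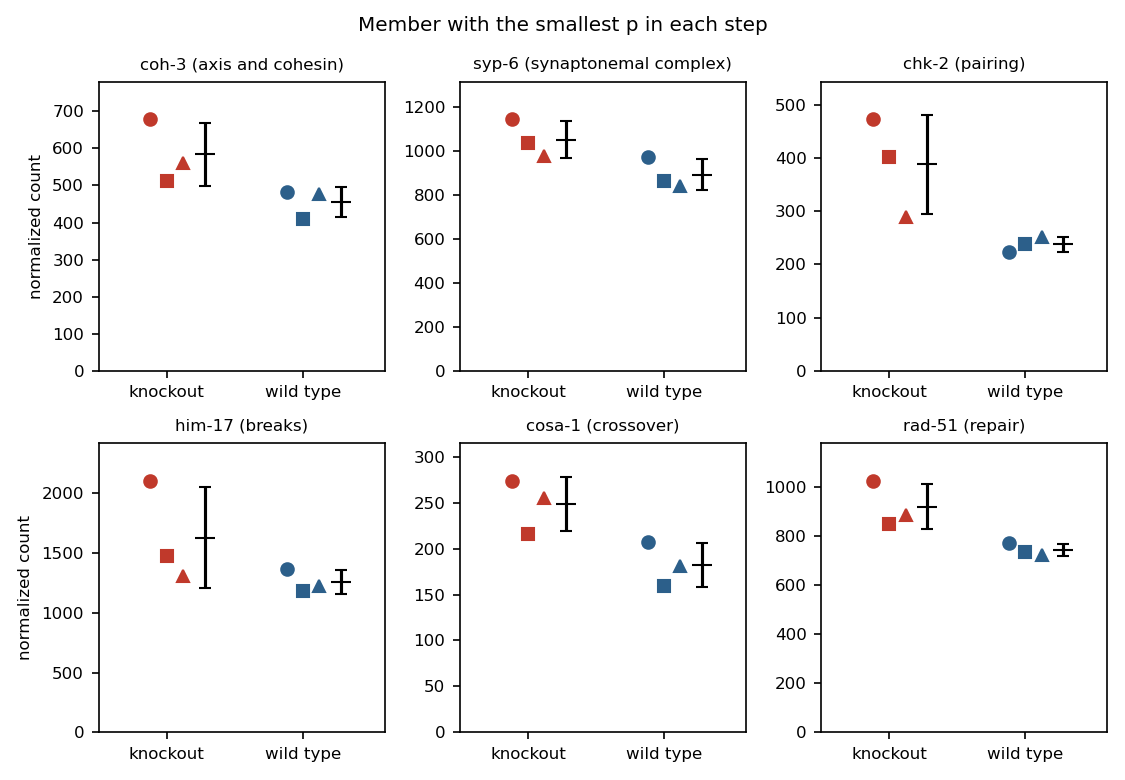
Normalized counts of the gene with the smallest limma p in each step (*coh-3*, *syp-6*, *chk-2*, *him-17*, *cosa-1* and *rad-51*), knockout libraries left and wild-type libraries right; circles, squares and triangles are replicates 1, 2 and 3, and bars show the mean ± SD (n = 3 each). Knockout replicate 1 is the highest library in each of the 6 panels, and the groups overlap for *him-17*.

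Break formation needs SPO-11, the topoisomerase-like protein that cuts DNA, with the accessory proteins DSB-1, DSB-2 and DSB-3 and the chromatin protein HIM-17. For these 5 genes the median was 0.27 (log2), or 0.10 when knockout replicate 1 was left out, and none had an unadjusted p under 0.05. *him-17* had 2104, 1471 and 1309 normalized counts in knockout replicates 1, 2 and 3, against 1367, 1182 and 1225 in wild type replicates 1, 2 and 3. Knockout replicate 1 lay far above the rest, and knockout replicate 3 lay below wild type replicate 1 (log2 fold change 0.34, SE 0.18, limma adjusted p = 0.286, and 0.14 without knockout replicate 1). *dsb-1* had 618, 587 and 661 normalized counts in knockout replicates 1, 2 and 3, against 637, 559 and 549.8 in wild type replicates 1, 2 and 3. It had the highest level per kilobase of the break genes and its groups overlapped (log2 fold change 0.10, 95% interval -0.18 to 0.38). *spo-11* averaged 444 ± 69.3 in the knockout and 352 ± 82.8 in wild type (log2 fold change 0.35). *dsb-2*, a paralog of *dsb-1*, averaged 274 ± 35.6 in the knockout and 281 ± 24 in wild type (-0.04), and *dsb-3* 285 ± 71.3 in the knockout and 232 ± 7.28 in wild type (0.27; SD, n = 3 each). The *dsb-3* groups did not overlap, with knockout replicate 2 at 237 close to wild type replicate 3 at 236.

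Crossovers are made from a few of the breaks. The MSH-5 and HIM-14 dimer, the cyclin-like protein COSA-1 and the RING finger proteins ZHP-1 to ZHP-4 act in this step. Of their 7 genes, 6 had a positive log2 fold change; the median was 0.34, or 0.26 when knockout replicate 1 was left out. Wild type replicate 2 was the lowest library for all 7. *cosa-1* had 274, 216 and 255 normalized counts in knockout replicates 1, 2 and 3, against 207, 159.7 and 181 in wild type replicates 1, 2 and 3 (chromosome III, 2726084 to 2731533). The groups did not overlap and the log2 fold change was 0.44 (SE 0.16, unadjusted p = 0.027, limma adjusted p = 0.169), and 14.02% of the *cosa-1* exon bases lie opposite Y71H2AM.12. *zhp-2* had 366, 337 and 291 normalized counts in knockout replicates 1, 2 and 3, against 278, 228 and 262 in wild type replicates 1, 2 and 3. These groups did not overlap either (log2 fold change 0.37, SE 0.15, limma adjusted p = 0.196), and 29.2% of the *zhp-2* exon bases are shared with D1081.6 on the same strand.

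ZHP-1 acts with ZHP-2, and ZHP-3 with ZHP-4. *zhp-1* was lower on average in the knockout, unlike its partner, with 153 ± 7.67 normalized counts in the knockout and 176 ± 37.2 in wild type (log2 fold change -0.18, 95% interval -0.61 to 0.25). *zhp-3* averaged 435 ± 97.6 in the knockout and 319 ± 57.2 in wild type (0.44) and *zhp-4* 118.8 ± 4.53 in the knockout and 94.1 ± 6.58 in wild type (0.34; SD, n = 3 each). The *zhp-4* groups did not overlap, but 26.6% of its exon bases are shared with *pro-3* on the same strand. *msh-5* averaged 759 ± 123.2 in the knockout and 661 ± 50.5 in wild type and *him-14* 381 ± 44.3 in the knockout and 327 ± 43.4 in wild type, with groups that overlapped. The ratio of *msh-5* to *him-14* per kilobase, whose products form the dimer, was 1.23 ± 0.0641 in the knockout and 1.27 ± 0.0782 in wild type (SD, n = 3 each).

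The 5 repair genes had positive log2 fold changes, and their median of 0.29 became 0.11 when knockout replicate 1 was left out. RAD-51 is the recombinase that coats the cut ends and searches for the homolog. *rad-51* had 1026, 851 and 885 normalized counts in knockout replicates 1, 2 and 3, against 771, 735 and 723 in wild type replicates 1, 2 and 3 (chromosome IV, 10281637 to 10284244). It had the smallest p and the highest level per kilobase of the step, and the groups did not overlap (log2 fold change 0.30, SE 0.12, unadjusted p = 0.0334, limma adjusted p = 0.185). *him-18*, the SLX4 ortholog that gathers nucleases on recombination intermediates, averaged 858 ± 250 in the knockout and 647 ± 94.2 in wild type, with knockout replicate 1 at 1147, against 709.6 and 718 in knockout replicates 2 and 3. *brc-1* and *brd-1* encode the BRCA1 and BARD1 orthologs, which form a ubiquitin ligase. *brc-1* averaged 450.5 ± 162 in the knockout and 356 ± 54.5 in wild type, *brd-1* 553 ± 122 in the knockout and 452 ± 70.2 in wild type, and *rad-54.L*, which acts on RAD-51 filaments, 689.7 ± 147 in the knockout and 619 ± 52.9 in wild type (SD, n = 3 each). For *brc-1*, *brd-1*, *rad-54.L* and *him-18* knockout replicate 1 lay well above the other 5 libraries, and without it the log2 fold changes were 0.01, 0.11, -0.03 and 0.15.

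Other genes of meiosis, the germline and the gametes were set beside the 40. Of 47 other meiotic genes measured, among them cohesin subunits, nucleases and checkpoint kinases, 0 were called by limma and 0 in the authors' deposited table. At an unadjusted p under 0.05 there were 3 of the 47 (6.38%, against 22.6% of all genes tested). Positive log2 fold changes numbered 43, and the median was 0.19. Of 26 germ granule and germline identity genes, 9 (34.6%) had an unadjusted p under 0.05, 8 higher and 1 lower. limma called 0 of the 26, and their median was 0.30. The authors' deposited table has 3 of them higher, against 2.83% of all 21507 genes. These are *meg-4* and *meg-3*, germ granule genes, and *gld-1*, an RNA-binding regulator of meiotic entry. *meg-4* averaged 129 ± 64.9 normalized counts in the knockout and 34.3 ± 8.35 in wild type (authors' adjusted p = 0.000197). *gld-1* averaged 12690 ± 4637 in the knockout and 7424 ± 1092 in wild type (SD, n = 3 each; authors' adjusted p = 0.0336). Of 23 germline stem and mitotic zone genes, 0 were called by limma, and their median was 0.22. At an unadjusted p under 0.05 there were 4 of the 23 (17.4%, against 22.6% of all genes tested). The authors' deposited table has *sygl-1*, a target of Notch signalling in germline stem cells, higher (adjusted p = 0.0318). *nos-3* is in both of these lists.

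Gamete marker lists had medians further from 0. The log2 fold change was positive for all 23 oocyte markers, and their median was 0.95, or 0.61 when knockout replicate 1 was left out. None was called by limma (18 at an unadjusted p under 0.05), and 10 were higher in the authors' deposited table, among them *egg-2* and *egg-1*, needed on the oocyte for fertilization, *lin-41*, an oocyte regulator, and *mex-6*, *spn-4* and *pos-1*, whose products are loaded into the oocyte for the embryo. *lin-41* averaged 3427 ± 2219 normalized counts in the knockout and 1399 ± 276 in wild type. The log2 fold change was negative for 21 of 24 spermatocyte and sperm markers, and their median was -0.37, or -0.30 when knockout replicate 1 was left out. limma called none of the 24 (10, or 41.7%, at an unadjusted p under 0.05, against 22.6% of all genes tested). The authors' deposited table has 4 of them lower, *nspd-7*, *fer-1*, *ssq-4* and *ssq-1*, against 2.92% of all 21507 genes. *fer-1*, which acts in the fusion of sperm membranous organelles, averaged 447 ± 27.4 in the knockout and 715 ± 42.3 in wild type (SD, n = 3 each).

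**Figure D4:**
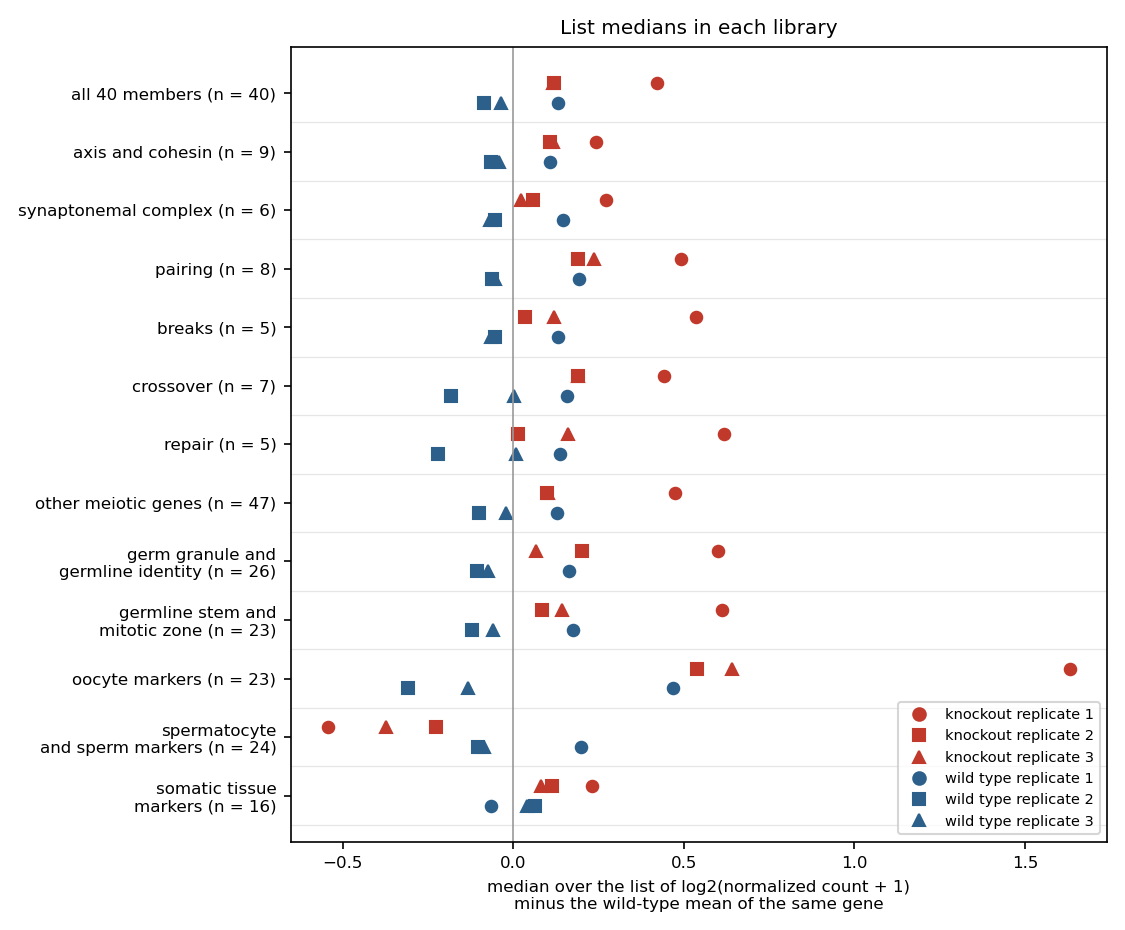
Median over each gene list of the difference in log2(normalized count + 1) from the wild-type mean of the same gene, in each library; knockout libraries lie above wild-type libraries in each row, and n is the number of genes that passed the filter. For the 40 members the medians are 0.42, 0.12 and 0.12 in knockout replicates 1, 2 and 3, against 0.13, -0.09 and -0.04 in those of wild type, and the oocyte markers spread furthest.

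By library, the germline lists were laid out like the 40 genes. The other meiotic genes had medians of 0.47, 0.10 and 0.10 in knockout replicates 1, 2 and 3, against 0.13, -0.10 and -0.02 in those of wild type. Germ granule and germline identity genes had 0.60, 0.20 and 0.07 in the knockout and 0.16, -0.11 and -0.07 in wild type, and stem and mitotic zone genes 0.61, 0.08 and 0.14 in the knockout and 0.17, -0.12 and -0.06 in wild type. For these lists too, knockout replicate 1 was highest, wild type replicate 2 lowest, and wild type replicate 1 near or above knockout replicates 2 and 3. Oocyte markers had 1.63, 0.54 and 0.64 in the knockout and 0.47, -0.31 and -0.13 in wild type. Their summed level was 49640.4 to 119044 normalized counts in the knockout and 28473 to 46541 in wild type. The sperm markers had -0.54, -0.23 and -0.38 in the knockout and 0.20, -0.10 and -0.09 in wild type, and their summed level was 30951 to 38529.5 in the knockout and 38646 to 52014 in wild type. No marker of either list was at 0 in all libraries. Somatic markers had 0.23, 0.11 and 0.08 in the knockout and -0.07, 0.06 and 0.04 in wild type, with 10 of 16 log2 fold changes positive. limma called 0 of them (2, or 12.5%, at an unadjusted p under 0.05, against 22.6% of all genes tested). *elt-3*, an epidermal transcription factor gene, and *myo-2*, a pharyngeal myosin gene, are higher in the authors' deposited table (adjusted p = 0.0366 and 0.0394), as are 2.83% of all 21507 genes. The epidermal markers did not share a direction. *lin-26* averaged 1171 in the knockout and 842 in wild type, but *rol-6* averaged 1195 in the knockout and 2218 in wild type, and *dpy-7* 323 and 481. The part of the oocyte content, the sperm content or the composition of knockout replicate 1 in the values of the meiotic genes was not tested.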

How the data were processed

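Per the labels' protocols, TRIzol was used for RNA and a NEBNext Ultra RNA kit for the libraries. Nothing there says that strand was kept, so reads of overlapping genes cannot be told apart. As tools, with no roles given, the submitters' processing notes list DESeq2 1.20.0, featureCounts 1.5.0-p3, HISAT2 2.0.5, StringTie 1.3.3b and CASAVA 1.8. WBcel235 is the genome build in the same notes. The deposited signal columns are the authors' normalized counts: every value is a whole multiple of its column's step (100% of values, tolerance 0.01 read), which gave back the reads. The log2 fold changes, p-values and adjusted p-values of the authors' comparison were also deposited (6267 adjusted values at exactly 1). Gene IDs were matched to symbols through Ensembl 115 and RefSeq locus tags (21078 of 21507 IDs found), and 2 genes of the comparison lists (*pds-5* and *unc-17*) were not matched and not used. Exon overlaps and exon bases come from Ensembl 115, coordinates and gene lengths from the deposited table. The gene models of these sources differ for some members, such as *syp-1* (deposited length 1567, 3053 exon bases in Ensembl 115), *zhp-4* (929 and 1657) and *hal-2* (1177 and 1424). A part shared in Ensembl 115 may therefore lie outside the bases counted, and levels per kilobase depend on the lengths used.

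With R 4.3.3, limma 3.58.1 (two-sided, with empirical Bayes and a mean-variance trend) was fitted to log2(normalized count + 1) of 15169 genes (mean of 10 or more over the libraries), with Benjamini-Hochberg adjustment over all of them. This scale understates changes of low genes. The members and lists were chosen with earlier results of these data known. Genes given in every sample were, per step, the smallest limma p and the highest wild-type level per kilobase, genes called by limma or in the authors' table, and the pairs *htp-1* and *htp-2*, *coh-3* and *coh-4*, and *syp-5* and *syp-6*. *rec-8* and *syp-1*, also given in every sample, were chosen after their values were seen. From the other lists, called genes were named by smallest authors' adjusted p. Alternatives were edgeR 4.0.16 and DESeq2 1.42.0 on the recovered reads, and those named in the closing section. The limma script was tested on simulated data. Chi-square per degree of freedom between replicates was 17.9 to 124, so all libraries differed beyond sampling noise. Figures were drawn with Python 3.11.15 and matplotlib 3.10.9.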

Additional observations from a re-analysis of the deposited data

How the results depend on the processing

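The number of genes called over the whole table was 54 and varied with the setting. It was 112 with a mean of at least 1, 164 with no filter, 19 with a mean of at least 50 and 19 with a pseudocount of 0.5. It was 1236 in the authors' deposited table and with DESeq2, 9 with edgeR and TMM factors, 21 with edgeR and median-of-ratios factors, 320 with sample weights and 8 with scaling to total reads. It lay between 0 and 247 when 1 library was left out of limma: 36 without knockout replicate 1, 247 without 2 and 0 without 3, and 0, 0 and 1 without wild type replicates 1, 2 and 3. With DESeq2 it lay between 293 and 1730 when 1 library was left out: 733, 1730 and 1045 without knockout replicates 1, 2 and 3, and 755, 293 and 628 without wild type replicates 1, 2 and 3. Under all of these the number of members called was 0, except 1 (*chk-2*) in the authors' deposited table and with DESeq2, and 0 to 1 in DESeq2 without 1 library: *zim-2* without knockout replicate 2 or wild type replicate 1, and *chk-2* without knockout replicate 3. Scaling to total reads put 44.5% of all genes above 0, against 51.2%, moved the median of all genes to -0.05 and left 4 genes higher and 4 lower. Under it 30 members were positive, with a median of 0.17, and 2 (5%) had an unadjusted p under 0.05, against 20.0% of all genes tested. The split of calls was 6 higher and 30 lower without knockout replicate 1, against 32 and 22. Over all settings the members' median log2 fold change lay between 0.11 and 0.29 and the number of positive members between 29 and 37. Groups did not overlap for 13 members, or 12 with scaling to total reads. DESeq2 without 1 library, sample weights and scaling to total reads were chosen after seeing the data.

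With the replicate number as a block, limma called 688 genes and 0 members (12, or 30%, at an unadjusted p under 0.05, against 26.2% of all genes tested). Deviations from the group mean of same-numbered libraries correlated at 0.20, -0.02 and 0.29 for replicates 1, 2 and 3. Knockout replicates 1 and 3 correlated best with the wild-type library of the same number, and knockout replicate 2 with wild type replicate 1 (0.13). With so few libraries, these correlations cannot tell whether same-numbered samples share more than a number.

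Of 1000 member values under 25 settings, 47 changed sign, in 9 members, and the cause was not tested. When 1 library was left out, the log2 fold change of limma (and, in parentheses, of DESeq2) ranged over -0.147 to 0.0218 (-0.153 to 0.0285) for *dsb-2*, -0.103 to 0.121 (-0.114 to 0.115) for *hal-3*, -0.0251 to 0.17 (-0.0169 to 0.165) for *him-3*, -0.117 to 0.0777 (-0.119 to 0.0774) for *htp-3*, -0.219 to 0.171 (-0.268 to 0.171) for *lab-1*, -0.0281 to 0.229 (-0.0346 to 0.241) for *rad-54.L*, -0.247 to 0.0448 (-0.251 to 0.0535) for *rec-8*, -0.0615 to 0.127 (-0.0712 to 0.13) for *syp-2* and -0.0338 to 0.146 (-0.0402 to 0.143) for *syp-4*. Sample weights gave 0.0489 for *dsb-2* and 0.0325 for *lab-1*, quantile normalization gave -0.0086 for *him-3*, edgeR with TMM factors gave -0.0055 for *hal-3*, and scaling to total reads gave -0.0499 for *hal-3*, -0.0174 for *him-3* and -0.0358 for *syp-2*. Each member had at least 91 reads in every library, so no value rests on a count near 0.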

Other observations

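The 40 meiotic genes were unevenly placed. Of them 13 lie on chromosome IV (32.5%, against 17.1% of the genes tested), 11 on chromosome I, 7 on V, 5 on III and 4 on II, and 0 lie on the X chromosome, which holds 14.01% of the genes tested. The genes were chosen by name, so this describes the choice.

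The pairing centre genes of chromosome IV have 7 neighbours that passed the filter among the 3 genes listed on either side and those within the span. Their log2 fold changes ran from -0.48 (T07G12.3) to 1.10 (T07G12.5), 3 positive and 4 negative, with limma adjusted p from 0.301 to 0.878. T07G12.5 was low, at 15.2, 20.1 and 84.9 normalized counts in knockout replicates 1, 2 and 3, against 12, 11.8 and 16.9 in those of wild type. Its value thus rests largely on knockout replicate 3. T07G12.2 was also low, at 3.75 to 21.2 normalized counts. Within the crossover genes, the partners *zhp-1* and *zhp-2*, both on chromosome I, had log2 fold changes of opposite sign, -0.18 and 0.37, with 95% intervals that overlapped.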
